A study of Mus musculus with 15 samples.

Results

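The cytosolic ribosomal protein genes encode the protein subunits of the ribosome that translates nuclear messenger RNAs. They were taken by gene symbol: Rpl or Rps followed by a number and an optional letter and digit, Rplp0 to Rplp2, and Rpsa, with the Rps6k kinase genes and symbols marked as pseudogenes left out. Of 18536 genes in the table, 82 matched, and the 77 with a mean normalized count of at least 10 over the 15 libraries are described here. The rule used a mean level and no comparison of ages. By symbol, 47 members were assigned to the large (60S) subunit and its stalk and 30 to the small (40S) subunit. They include Rpl32l and Rps4l, which the GENCODE annotation lists as processed pseudogenes. Just outside the level minimum were Rpl36a, Rpl39l, Rps29, Rpl3l and Rps18, with mean normalized counts of 9.83, 8.29, 4.71, 4.27 and 1.29, and just inside it were Rpl21, Rpl28 and Rpl37, with 13.9, 14.8 and 19.1.

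Auditory nerve, which holds the spiral ganglion neurons and their glia, was dissected from mouse cochleae at postnatal day 3 (P3), P7, P14, P21 and in adults, and its total RNA was sequenced. Each age had 3 libraries, and each library pooled both cochleae of 1 mouse. No strain, sex, treatment or adult age was given in the labels, and the adult libraries were titled as controls. The Y-linked transcript Eif2s3y had 2751 or more normalized counts in all P3 and P7 libraries. It had 0 in P14 replicate 1 and P21 replicates 1 and 2, and 26.7 in adult replicate 3. This transcript was thus not balanced across the ages. The series profiled development of the nerve, and mice begin to hear in the second postnatal week. Values are normalized counts, that is, read counts divided by a factor that evens out sequencing depth between libraries. Depth was 35250155 to 42258736 reads per library, so that 3 reads, taken as the floor, were worth 2.53 to 3.65 normalized counts. All 12 neuronal markers (such as Nefl and Tubb3) and all 12 Schwann cell markers (such as Pmp22) had counts at every age, as did all the markers of bone, blood and connective tissue cells found in the table.

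Ribosomal proteins are made in the cytoplasm, imported into the nucleolus, joined to ribosomal RNA and exported as subunits, so that cells tend to make them in matched amounts. Their transcripts are among the most abundant of growing cells. Most begin with a cytosine followed by an unbroken run of pyrimidines, the 5′ terminal oligopyrimidine (5′TOP) tract, through which the kinase mTORC1 and the RNA-binding protein LARP1 control their translation and stability.

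Start-site sequences were available for 57 of the 77 members in RefSeq (GRCm38.p6), and the windows here run from 20 bases before to 20 bases after each annotated start. A tract, defined as C followed by at least 5 bases that are C or T on the gene's strand, in the window of any annotated start of a gene, was found in 38 of the 57 (66.7%), against 32.8% of all 27025 genes in the same table and 37.7% of mitochondrial ribosomal protein genes. The first group shows tracts at or next to the annotated start (capitals), in genes of both subunits and in Rack1, a scaffold protein bound to the 40S subunit that is not a member.
Rps6 (chr4:86857348-86857387, minus strand): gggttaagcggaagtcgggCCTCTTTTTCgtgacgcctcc
Rpl35 (chr2:39005112-39005151, minus strand): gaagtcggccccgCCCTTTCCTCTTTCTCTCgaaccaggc
Rpl27a (chr7:109519175-109519214, plus strand): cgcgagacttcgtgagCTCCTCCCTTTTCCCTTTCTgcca
Rpl15 (chr14:18270967-18271006, minus strand): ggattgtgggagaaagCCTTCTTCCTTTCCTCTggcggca
Rps10 (chr17:27635225-27635264, minus strand): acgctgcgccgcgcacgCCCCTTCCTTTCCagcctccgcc
Rack1 (chr11:48800340-48800379, plus strand): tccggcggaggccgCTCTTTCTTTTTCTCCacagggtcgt
The second group is shown because it holds members with some of the larger decreases in adults against P3, whose windows contain no such run.
Rps7 (chr12:28635934-28635973, minus strand): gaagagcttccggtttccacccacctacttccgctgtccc
Rplp0 (chr5:115559447-115559486, plus strand): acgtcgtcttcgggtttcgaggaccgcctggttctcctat
Rpsa (chr9:120127746-120127785, plus strand): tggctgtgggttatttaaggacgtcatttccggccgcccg
Rpl10a, which fell as much, has a short run before 1 of its 2 annotated starts and none in the window of the other.
Rpl10a (chr17:28328451-28328490, plus strand): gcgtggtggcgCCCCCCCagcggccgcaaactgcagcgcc
Rpl10a (chr17:28328545-28328584, plus strand): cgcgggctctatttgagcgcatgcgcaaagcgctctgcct
The last is Rpl7l1, a distant relative of Rpl7 with a small decrease, also without a run.
Rpl7l1 (chr17:46782637-46782676, minus strand): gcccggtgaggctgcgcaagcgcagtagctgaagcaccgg
The annotated start need not be the start used in this tissue, so an absent run says only that these letters are not in this window.

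Within 250 bases before to 50 bases after the start, the letters CCGGAA, on either strand, occurred in 33 of the 57 members (57.9%), in 16.7% of all genes in the RefSeq table and in 25.1% of the 14189 genes also present in the count table. The share was 58.0% in the 69 mitochondrial ribosomal protein genes with sequence. The letters AAGATGGC were found in 6 members (10.5%), against 4.19% of genes in both tables, and GGGCGG in 36 members (63.2%), against 59.95%. The median log2 fold change of P14 against P7 was -0.81 in the 38 with a tract and -0.84 in the 19 without, and that of adults against P3 was -1.51 and -1.57. By the test given below, 35 with a tract and 12 without were called lower at P14 against P7. In adults against P3 the counts were 36 and 17. Of all genes tested, 23.8% and 34.3% were called lower in these comparisons. The difference between the 2 groups of members was not tested.

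Together the 77 genes took 0.980% ± 0.103 of all normalized counts at P3, 0.876% ± 0.0277 at P7, 0.443% ± 0.0476 at P14, 0.497% ± 0.0984 at P21 and 0.297% ± 0.0140 in adults (SD, n = 3 each). The share thus stood on 3 levels: high at P3 and P7, lower at P14 and P21, and lowest in adults. By library it was 1.07%, 1.01% and 0.866% at P3, 0.899%, 0.845% and 0.883% at P7, and 0.498%, 0.409% and 0.424% at P14. At P21 it was 0.449%, 0.611% and 0.433%, and in adults 0.286%, 0.292% and 0.313%. No library of P14, P21 or adults reached any library of P3 or P7, and P21 replicate 2 stood above every other library of P14, P21 and adults. The adult share was 0.303 of the P3 share. The ratio of summed 60S to summed 40S counts was 1.22 ± 0.013 at P3, 1.26 ± 0.019 at P7, 1.31 ± 0.009 at P14, 1.26 ± 0.017 at P21 and 1.28 ± 0.011 in adults. Mitochondrial ribosomal protein genes, which serve the separate ribosome of mitochondria, took 0.226% ± 0.0169 at P3, 0.246% ± 0.0048 at P7, 0.230% ± 0.0195 at P14, 0.258% ± 0.0411 at P21 and 0.193% ± 0.0073 in adults. In bulk tissue, fewer cells of a type and less RNA per cell cannot be told apart.

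**Figure D1:**
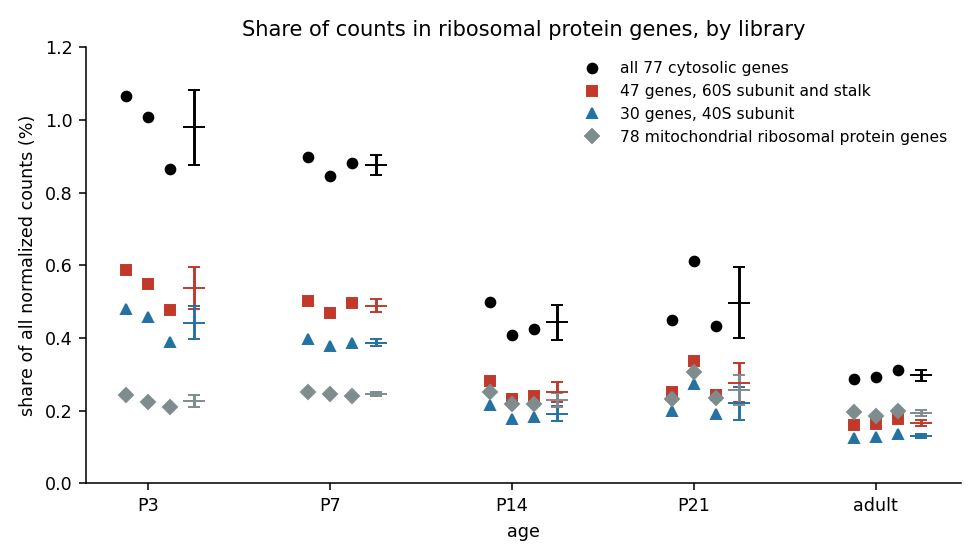
Share of all normalized counts (%, vertical axis) in each library by age, for the 77 cytosolic genes, their 60S and 40S parts and 78 mitochondrial ribosomal protein genes; bars give mean ± SD of 3 libraries. The cytosolic share averaged 0.297% in adults and 0.980% at P3, while the mitochondrial share stayed between 0.185% and 0.305% in all libraries.

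Between P3 and P7 few members were called, though more were called lower under the correction for transcript length given below. The test was limma on log2(normalized count + 1) with all 15 libraries in 1 fit, and p-values were adjusted by Benjamini-Hochberg over the 16723 genes that passed a minimum level, with a threshold of 0.05 for a call. Of the 77 members, 3 fell at P7 against P3 and none rose, where 12.8% of all genes tested were called lower and 15.4% higher, 28.1% in all. At an unadjusted p under 0.05 there were 4, all lower, and the share of all genes at that unadjusted threshold is not given here. The 3 were Rplp0, the scaffold of the stalk that recruits elongation factors (log2 fold change -0.23 ± 0.08 SE, adjusted p = 0.0498, limma), Rps9, a 40S protein near the messenger RNA entry site (-0.27, adjusted p = 0.0090, limma), and Rpl23, a 60S protein (-0.47, adjusted p = 0.043, limma). Rps9 was called under all alternatives run, while the adjusted p ranged from 0.0014 to 0.18 for Rplp0 and from 0.00086 to 0.13 for Rpl23 (limma, edgeR and DESeq2), and TMM scaling ended both calls, as did leaving out P3 replicate 1 or 2, P7 replicate 4 or 5, P14 replicate 3 or adult replicate 2 or 3. The libraries of both ages were separate in 10 members, where they were in 54.2% of all genes tested, and the median over the members was -0.07.

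Between P7 and P14 most members fell. Of the 77, 64 fell at P14 against P7, none rose and 13 were not called, where 23.8% of all genes tested were called lower and 24.3% higher, 48.1% in all. Their median log2 fold change was -0.83, against -0.02 over all genes tested. In 68 members the libraries of both ages did not overlap, where 61.4% of all genes tested did not. The decrease took in 29 of 30 genes of the 40S subunit (median -0.93) and 35 of 47 of the 60S subunit (median -0.81). The standard deviation of the log2 fold changes was 0.34 among members and 0.87 among all genes tested.

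From P14 to P21 no member was called in either direction, where 9.29% of all genes tested were, 3.29% higher and 6% lower. The median was +0.13, 63 of 77 estimates were positive, and 3 members (Rps19, Rps25 and Rps21) were higher at an unadjusted p under 0.05. The share of all genes at that unadjusted threshold is not given here. The libraries of both ages were separate in 1 member, where they were in 24.4% of all genes tested. Without P21 replicate 2, whose share stood apart, the median was -0.04 and 2 members were called lower (limma), where 7.19% of all genes tested were.

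In adults against P21, 66 members fell, none rose and 11 were not called, where 24.1% of all genes tested were called lower and 25.4% higher, 49.4% in all. The median was -0.77, against 0.00 over all genes tested, and 68 members did not overlap between the ages, where 56.1% of all genes tested did not. Without P21 replicate 2, the count was 61 and the median -0.56. Over the whole span, in adults against P3, 71 members fell, none rose and 6 were not called, where 34.3% of all genes tested were called lower and 34.4% higher, 68.7% in all. The median was -1.53, against -0.01 over all genes tested, and 70 members did not overlap, where 76.4% of all genes tested did not. In a joint test over the 5 ages, 70 of 77 members differed, where 85.4% of all genes tested did. The comparisons share libraries, since P7, P14, P21 and P3 each stand in more than 1 of them. Of the 77 members, 61 were called lower both at P14 against P7 and in adults against P21, 3 at P14 against P7 only, 5 in adults against P21 only, and 8 in neither, where 9.38% of all genes tested were called lower in both. These counts were taken without the correction for transcript length.

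**Figure D2:**
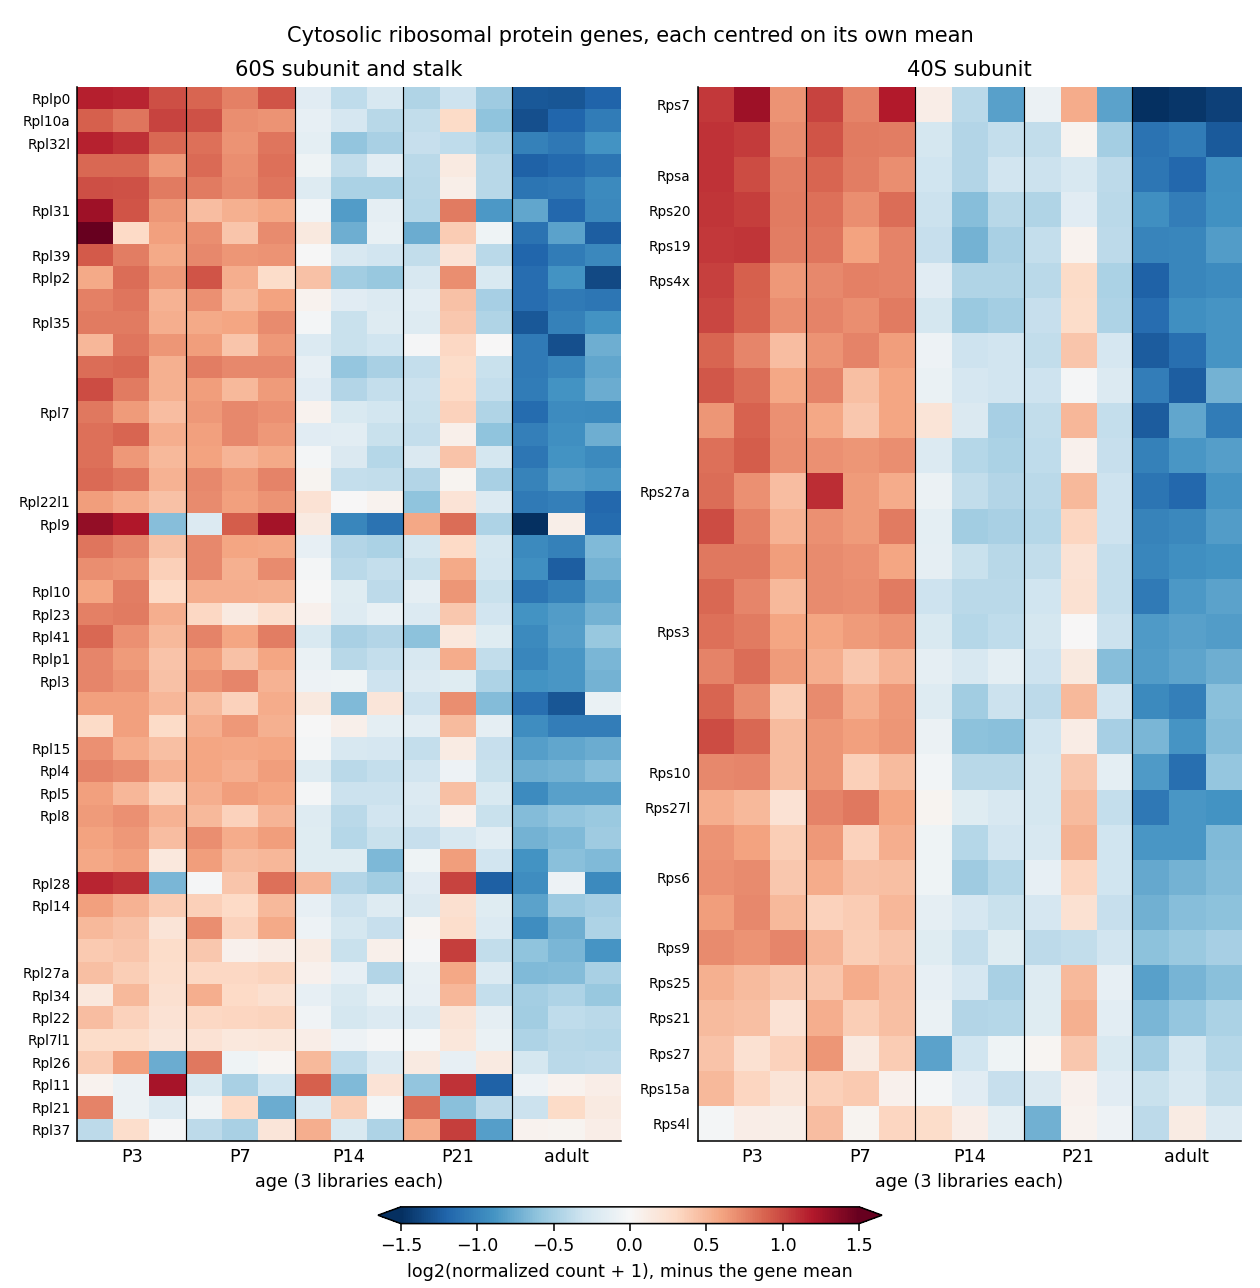
Heat map of log2(normalized count + 1) for the 77 members in the 15 libraries (columns, by age), each gene minus its own mean, with 60S genes on the left and 40S genes on the right, ordered by adult against P3 log2 fold change and labelled where the text names the gene, from Rplp0 at -2.34 (60S) and Rps7 at -2.51 (40S) downwards. In the 71 members called lower in adults against P3, P3 libraries mostly lie above the gene mean and adult libraries below it, and P21 replicate 2 stands above the other 2 P21 libraries in most rows.

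The stalk genes, whose products reach out from the 60S subunit to bind elongation factors, all fell by adulthood. Rplp0 had 11356, 11173 and 9911 normalized counts at P3, 9287, 8545 and 9773 at P7 and 4512, 3903 and 4300 at P14. It had 3721, 4098 and 3501 at P21 and 2104, 2081 and 2212 in adults. The libraries of P14 and P21 overlapped, and all other neighbouring ages were separate. The log2 fold change of Rplp0 was -1.12 ± 0.08 at P14 against P7 (adjusted p = 2.3e-07, limma), -0.82 ± 0.08 in adults against P21 (adjusted p = 5.4e-05) and -2.34 ± 0.08 in adults against P3 (adjusted p = 7.1e-11). Rplp1 averaged 8670 ± 938 at P3, 8370 ± 581 at P7, 4671 ± 546 at P14, 5872 ± 2169 at P21 and 3181 ± 328 in adults (SD, n = 3), and its adult against P3 log2 fold change was -1.45 ± 0.19 (adjusted p = 1.3e-05, limma). Rplp2, whose pseudogene symbol Rplp2-ps1 took far more counts, stood at 15.9 ± 2.6 in adults and 58.0 ± 5.9 at P3 and changed by -1.82 ± 0.33 in adults against P3 (adjusted p = 0.00028, limma).

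Among 40S genes, Rps7, a protein needed for processing of the small subunit's RNA, had the largest decrease at both P14 against P7 and adults against P3 among called members with a mean of at least 100. It had 1033, 1197 and 787 normalized counts at P3, 1001, 831 and 1132 at P7 and 530, 372 and 281 at P14. It had 466, 727 and 283 at P21 and 154, 178 and 187 in adults. Adult libraries lay below all others, and P14 and P21 overlapped. Its log2 fold change was -1.36 ± 0.30 at P14 against P7 (adjusted p = 0.0021, limma) and -2.51 ± 0.30 in adults against P3 (adjusted p = 5.1e-06).

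Rps20 and Rps19, proteins of the 40S head, followed Rps7 in size of decrease at P14 against P7 among called members with a mean of at least 100. The estimate of the 60S gene Rpl9 lay between those of Rps7 and Rps20 and was not called (-1.30 ± 0.61, limma). Rps20 had 10070, 9827 and 8217 at P3, 8451, 7771 and 8575 at P7, 3835, 3084 and 3588 at P14, 3491, 4237 and 3602 at P21 and 2535, 2336 and 2557 in adults. Its log2 fold change was -1.24 ± 0.10 at P14 against P7 (adjusted p = 6.2e-07, limma), and the libraries of those ages were far apart. Rps19, a gene mutated in Diamond-Blackfan anaemia in humans, had 4545, 4607 and 3726 at P3, 3800, 3312 and 3645 at P7, 1714, 1338 and 1557 at P14, 1709, 2267 and 1667 at P21 and 1095, 1108 and 1219 in adults. Its log2 fold change was -1.23 ± 0.13 at P14 against P7 (adjusted p = 4.7e-06, limma) and -1.91 ± 0.13 in adults against P3 (adjusted p = 1.9e-08).

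Rpsa, a 40S protein also known as the laminin receptor precursor, had 2403, 2220 and 1917 at P3, 2073, 1917 and 1830 at P7, 915, 830 and 927 at P14, 906, 955 and 856 at P21 and 531, 497 and 598 in adults. It stood on 3 levels with little spread, and P14 and P21 could not be separated (log2 fold change 0.02 ± 0.10). Rps6, the 40S protein phosphorylated by S6 kinase downstream of mTORC1, had 11024, 11143 and 9090 at P3, 10068, 9294 and 9347 at P7, 6523, 4721 and 5081 at P14, 6300, 8542 and 5569 at P21 and 4018, 4187 and 4363 in adults. Its log2 fold change was -1.31 ± 0.15 in adults against P3 (adjusted p = 3.1e-06, limma) beside -2.0 ± 0.10 for Rpsa (adjusted p = 9.0e-10), and the difference between the genes was not tested. Rps3, a 40S protein with a role in DNA repair, averaged far more counts than most members. It had 7711, 7906 and 7768 in adults, against 24591, 23888 and 20946 at P3 (log2 fold change -1.57 ± 0.09 in adults against P3, adjusted p = 4.0e-09, limma). Rps27a, which is made fused to ubiquitin, averaged 411 ± 43 in adults and 1351 ± 173 at P3 (-1.71 ± 0.21, adjusted p = 8.0e-06, limma).

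At the other end of the 40S list were Rps15a and Rps27. Rps15a averaged 1309 ± 132 at P3, 1257 ± 147 at P7, 917 ± 100 at P14, 965 ± 104 at P21 and 833 ± 41 in adults, and its log2 fold change was -0.65 ± 0.12 in adults against P3 (adjusted p = 0.00021, limma). Rps27, a zinc-finger protein of the 40S subunit, had 66.6, 57.9 and 63.1 at P3, 78.6, 54.2 and 64.8 at P7, 27.9, 39.8 and 47.2 at P14, 50.5, 65.8 and 42.1 at P21 and 34.3, 40.5 and 36.5 in adults. Its log2 fold change was -0.78 ± 0.24 at P14 against P7 (adjusted p = 0.016, limma) and -0.74 ± 0.24 in adults against P3 (adjusted p = 0.015), with the adult against P21 difference not called (-0.48 ± 0.24). Nearly all of its sequence, 98.5% of 75-base windows, also occurs in other annotated genes.

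Among 60S genes, Rpl10a had the largest decrease in adults against P3 after Rps7 and Rplp0. It had 2201, 2070 and 2383 normalized counts at P3, 2293, 1916 and 1884 at P7, 1088, 998 and 887 at P14, 914, 1448 and 782 at P21 and 476, 517 and 572 in adults. Adults were below all other ages, and the log2 fold change against P3 was -2.09 ± 0.18 (adjusted p = 2.0e-07, limma). Rpl3, a core protein that reaches toward the peptidyl transferase centre, had 1399, 1340 and 1138 at P3, 1336, 1394 and 1204 at P7, 797, 805 and 678 at P14, 730, 742 and 608 at P21 and 451, 458 and 514 in adults. It was tightly grouped within ages, with -0.79 ± 0.11 at P14 against P7 (adjusted p = 6.3e-05, limma) and -1.44 ± 0.11 in adults against P3 (adjusted p = 7.1e-08).

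Rpl39, a small protein of the exit tunnel encoded on chromosome X, had 1327, 1196 and 1042 at P3, 1158, 1114 and 1118 at P7, 696, 592 and 574 at P14, 542, 807 and 529 at P21 and 308, 339 and 357 in adults. Its log2 fold change was -0.87 ± 0.15 at P14 against P7 (adjusted p = 0.00030, limma) and -1.82 ± 0.15 in adults against P3 (adjusted p = 1.2e-07). Rpl5, which carries the 5S ribosomal RNA into the large subunit with Rpl11, averaged 1516 ± 79 in adults and 3844 ± 379 at P3 (-1.34 ± 0.15, adjusted p = 3.3e-06, limma). Its partner Rpl11 was not called in any of the 5 comparisons.

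Per kilobase of transcript, high mean levels over all libraries were those of Rpl8 (21801 normalized counts per kilobase), Rps21 (17470) and Rpl4 (15672), and the lowest those of Rpl21 (15.5), Rpl28 (19.2) and Rpl37 (22.9). Subunits of 1 particle were thus counted over a range of more than 3 orders of magnitude. By count alone, 10 genes held 51.2% of all member counts. Few or no 75-base windows of Rpl4, Rpl8 and Rps3, all with high counts, occur in other annotated genes (8.47% of Rpl4, 4.89% of Rpl8 and 0% of Rps3). Of the same 10 genes, Rps6, Rpl15 and Rpl29 had 84.1%, 74.3% and 69.7% of windows found elsewhere, and all others were under 50%. Across the 77 members, the level per kilobase and the share of windows found elsewhere had a Spearman rho of -0.33, given as a description. How reads that align to several genes were counted is not given in the sources used here.

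The members without a call in adults against P3 were Rpl28, Rpl26, Rpl11, Rps4l, Rpl21 and Rpl37. Rpl37 had 18.7, 18.6 and 19.4 normalized counts in adults and 13.5, 21.8 and 17.9 at P3, with 38.0 at most in any library. Rpl21 had 10.4, 16.4 and 14.6 in adults and 22.8, 12.3 and 11.3 at P3, and the ages overlapped in both genes. Rpl28 had 6.24, 12.03 and 6.08 in adults and 29.5, 28.5 and 7.53 at P3, so that P3 replicate 3 alone fell among the adult values. Rpl11 had 327, 355 and 369 in adults and 357, 323 and 813 at P3, and its P21 libraries ranged from 148 to 732. Rpl26 had 213, 194 and 194 in adults and 334, 393 and 153 at P3. Rps4l, which the GENCODE annotation lists as a processed pseudogene, is described with its partner, and Rpl32l, also listed as a pseudogene, fell by 2.03 in adults against P3 (limma).

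Several members had a copy in the table with more counts than the member itself. Rpl37rt, a processed pseudogene copy, averaged 6426 normalized counts where Rpl37 averaged 19.1, and fell by 0.88 on the log2 scale at P14 against P7 (adjusted p = 0.00071, limma) and by 1.27 in adults against P3 (adjusted p = 1.4e-05). Rpl14-ps1 averaged 10363 where Rpl14 averaged 568 (-0.86 ± 0.08 and -1.17 ± 0.08 in the same comparisons, adjusted p = 1.7e-06 and 2.2e-08, limma). Gm15421 averaged 2484 where Rpl22l1 averaged 323 (-0.91 and -1.49), and Rpl31-ps12 averaged 2880 where Rpl31 averaged 296 (-0.96 and -1.63), all called lower. The protein-coding gene BC004004, which shares windows with Rpl21, averaged 3060 and was not called (-0.13 and 0.04). When each member was summed with its pseudogene copies, Rpl37 changed from uncalled to lower, with -0.88 at P14 against P7 (adjusted p = 0.00073, limma) and -1.26 in adults against P3 (adjusted p = 1.5e-05). Rplp2-ps1, a pseudogene by its symbol that was not among the summed copies, averaged 5474 where Rplp2 averaged 40.2, and its log2 fold change was -1.04 ± 0.11 in adults against P3 (adjusted p = 1.6e-06, limma), beside -1.82 for Rplp2. For members with such copies, the counts of gene and copy are uncertain, since reads from both can be alike.

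Some ribosomal proteins have a paralog, which in some cases can take their place. The log2 ratio of paralog to partner was followed in each library, and exchange within ribosomes was not tested. An exact permutation test (two-sided by construction, over all assignments of the 15 libraries to 5 ages of 3) was run on 5 pairs with both genes at a mean of 10 or more, with Benjamini-Hochberg adjustment over the 5. Its p is for any difference of the ratio among the 5 ages and not for a pair of ages, where 3 against 3 libraries could not go below 0.1. Rpl22l1, which in mice responds to loss of Rpl22, had 457, 434 and 399 normalized counts at P3, 482, 451 and 470 at P7, 342, 297 and 306 at P14, 195, 340 and 255 at P21 and 140, 144 and 130 in adults. Rpl22 had 8799, 8118 and 7443 at P3, 7948, 7961 and 8050 at P7, 6144, 5337 and 5533 at P14, 5535, 7293 and 5810 at P21 and 4435, 4887 and 4808 in adults. The log2 ratio was lowest in adults, at -4.24 ± 0.03 at P3, -4.09 ± 0.05 at P7, -4.17 ± 0.01 at P14, -4.58 ± 0.21 at P21 and -5.08 ± 0.11 in adults (exact permutation p = 7.1e-07, the smallest the design allows, adjusted p = 3.6e-06). Most counts of the Rpl22l1 sequence stood under its copy Gm15421, so this ratio covers only part of them.

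Rpl7l1 over Rpl7 had its highest ratio in adults. Rpl7l1, whose human counterpart is found in precursors of the large subunit, had 3506, 3499 and 3292 at P3, 3374, 3232 and 3260 at P7, 3111, 2750 and 2856 at P14, 2846, 3275 and 2716 at P21 and 2105, 2171 and 2151 in adults. It had no call at P14 against P7 (-0.18 ± 0.07, adjusted p = 0.054, limma) and fell in adults against P3 (-0.68 ± 0.07, adjusted p = 1.7e-06). Rpl7 had 5633, 5057 and 4474 at P3, 5127, 5354 and 5236 at P7, 3386, 2778 and 2699 at P14, 2579, 4123 and 2384 at P21 and 1458, 1690 and 1686 in adults. The log2 ratio was -0.55 ± 0.12 at P3, -0.67 ± 0.06 at P7, -0.02 ± 0.10 at P14, 0.00 ± 0.29 at P21 and 0.41 ± 0.10 in adults (exact permutation p = 0.00012, adjusted p = 0.00015).

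Rps4l over Rps4x differed among the 5 ages (exact permutation p = 4.3e-05, adjusted p = 9.0e-05), and its mean log2 ratio was 1.69 higher in adults than at P3. Rps4l is listed as a processed pseudogene in GENCODE, as stated above. Rps4x had 6323, 5765 and 4891 at P3, 5107, 5236 and 5192 at P7, 2754, 2277 and 2276 at P14, 2349, 3776 and 2237 at P21 and 1338, 1577 and 1615 in adults. Rps4l had 1012, 1101 and 1098 at P3, 1424, 1064 and 1292 at P7, 1246, 1106 and 930 at P14, 622, 1071 and 976 at P21 and 783, 1121 and 891 in adults, and was not called in adults against P3. Rps27l over Rps27 differed among the 5 ages (exact permutation p = 0.030, adjusted p = 0.030), with mean log2 ratios of 4.87 at P3, 5.11 at P7, 5.06 at P14, 4.67 at P21 and 4.25 in adults. Rps27 averaged 51.3 normalized counts, and 98.5% of its 75-base windows occur in other annotated genes. Its counts, and so this ratio, are uncertain. Rps27l, which in humans is induced by p53, had 2033, 1946 and 1620 at P3, 2344, 2413 and 2099 at P7, 1433, 1233 and 1180 at P14, 1163, 1938 and 1086 at P21 and 661, 758 and 746 in adults. Rpl3l over Rpl3, Rpl39l over Rpl39, Rpl10l over Rpl10 and Rpl36al over Rpl36a were not tested, since at least 1 gene of each pair was below a mean of 10 or not analysed here.

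**Figure D3:**
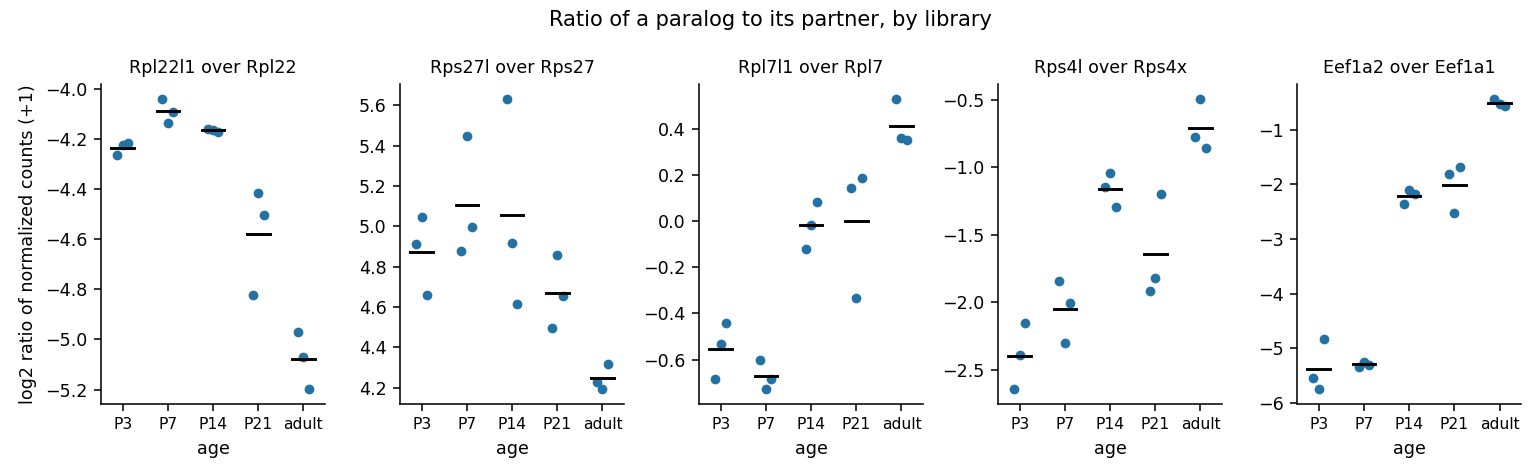
Log2 ratio of normalized counts (+1) of a paralog to its partner (vertical axis, own scale in each panel) in each library by age, with lines at the mean of 3. Rpl22l1 over Rpl22 and Rps27l over Rps27 end lowest in adults (-5.08 and 4.25), and Rpl7l1 over Rpl7, Rps4l over Rps4x and Eef1a2 over Eef1a1 end highest (0.41, -0.71 and -0.51).

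The fifth pair belongs to the elongation machinery, and its exchange in neurons and muscle is well known: Eef1a1 brings aminoacyl-tRNA to the ribosome in most cells, and Eef1a2 takes over in mature neurons and muscle. Eef1a1 averaged 150872 ± 9405 at P3, 132686 ± 1398 at P7, 72153 ± 3690 at P14, 65641 ± 12540 at P21 and 44018 ± 1166 in adults (SD, n = 3). Eef1a2 averaged 3731 ± 1052 at P3, 3379 ± 101 at P7, 15596 ± 756 at P14, 16190 ± 2086 at P21 and 30828 ± 606 in adults. The ratio of Eef1a2 to Eef1a1 differed among the 5 ages (exact permutation p = 5.4e-05, adjusted p = 9.0e-05), and it was 29.0 times as high in adults as at P3. Of 10 elongation factors, 4 fell and 2 rose at P14 against P7, and 6 fell and 2 rose in adults against P3, where 23.8% and 34.3% of all genes tested were called lower. Eef1a1 was at -0.88 ± 0.11 at P14 against P7 (adjusted p = 1.9e-05, limma).

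At P14 against P7, in adults against P21 and in adults against P3, the other lists of translation genes had medians nearer 0 than the ribosomal proteins. Another list held 15 other genes listed as having 5′TOP transcripts, with a tract by the rule above in 8 of the 13 with sequence. Of the 15, 13 fell and none rose at P14 against P7 (median -0.55), where 23.8% of all genes tested were lower. In adults against P3, 13 fell and none rose (median -0.98), where 34.3% of all genes tested were lower. Rack1 averaged 36852 ± 2280 at P3, 31074 ± 642 at P7, 14957 ± 1030 at P14, 14651 ± 1573 at P21 and 9775 ± 495 in adults, and fell by 1.06 at P14 against P7 (adjusted p = 4.4e-07, limma) and by 1.91 in adults against P3 (adjusted p = 3.7e-10). Fau, whose product is a ribosomal protein fused to a ubiquitin-like protein and whose symbol lies outside the rule, changed by -0.82 ± 0.16 in adults against P3 (adjusted p = 0.00051, limma). Gas5, a noncoding host of small nucleolar RNAs, changed by -1.29 ± 0.09 (adjusted p = 2.2e-08, limma).

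The counts of the lists that follow stand beside 23.8% of all genes tested lower and 24.3% higher at P14 against P7, and 34.3% lower and 34.4% higher in adults against P3. Of 40 genes for ribosome assembly and processing, 20 fell and 2 rose at P14 against P7 (median -0.31), and 22 fell and 7 rose in adults against P3 (median -0.27). Nop58, a core protein of box C/D ribonucleoproteins, fell by 0.85 at P14 against P7 (adjusted p = 8.5e-07, limma), and Npm1, a nucleolar chaperone, by 0.71 (adjusted p = 0.0043). Ncl, the nucleolar protein nucleolin, fell by 0.38 in adults against P3 (adjusted p = 0.00016, limma) and Fbl, the methyltransferase of box C/D particles, by 0.65 (adjusted p = 0.0021). In adults against P21, 15 were lower and 9 higher, where 24.1% of all genes tested were lower and 25.4% higher. Of 15 RNA polymerase I genes, 5 fell and 1 rose at P14 against P7, and 8 fell and 2 rose in adults against P3. Rrn3, the factor that brings the polymerase to its promoter, was higher in adults than at P3, at 3793 ± 193 and 2639 ± 34 (log2 fold change 0.52 ± 0.07, adjusted p = 1.0e-05, limma). Of 31 initiation factors, 19 fell and 1 rose at P14 against P7, and 19 fell and 7 rose in adults against P3, among them Eif3e (-1.42 ± 0.11, adjusted p = 9.3e-08, limma) and the helicase Eif4a1 (-1.32 ± 0.11, adjusted p = 1.8e-07).

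Of 20 growth-control genes, 8 rose and 6 fell in adults against P3 (median 0.10), near the shares of all genes tested. Myc, a transcription factor that drives ribosome production, averaged 990 ± 64 at P3, 437 ± 27 at P7, 286 ± 46 at P14, 221 ± 83 at P21 and 215 ± 7 in adults. Its largest step was that of P7 against P3 (-1.18 ± 0.20, adjusted p = 0.00094, limma). A relation of Myc to the members was not tested. Mycn, a relative of Myc, averaged 273 ± 13 in adults and 448 ± 26 at P3 (-0.71 ± 0.13, adjusted p = 0.00021, limma). Eif4ebp1, a translation repressor controlled by mTORC1, fell by 2.43 in adults against P3 (adjusted p = 9.6e-10, limma), and Tsc2, an inhibitor of mTORC1, rose by 0.67 (adjusted p = 1.9e-06). Of 78 mitochondrial ribosomal protein genes, 11 rose and 10 fell at P14 against P7 (median 0.00). In adults against P3, 18 rose and 11 fell (median 0.05). In adults against P21 none rose and 45 fell (median -0.35), where 24.1% of all genes tested were lower. Of genes under 1500 bases, cytosolic ribosomal protein genes left out, 47% were lower in adults against P21 (median -0.40).

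**Figure D4:**
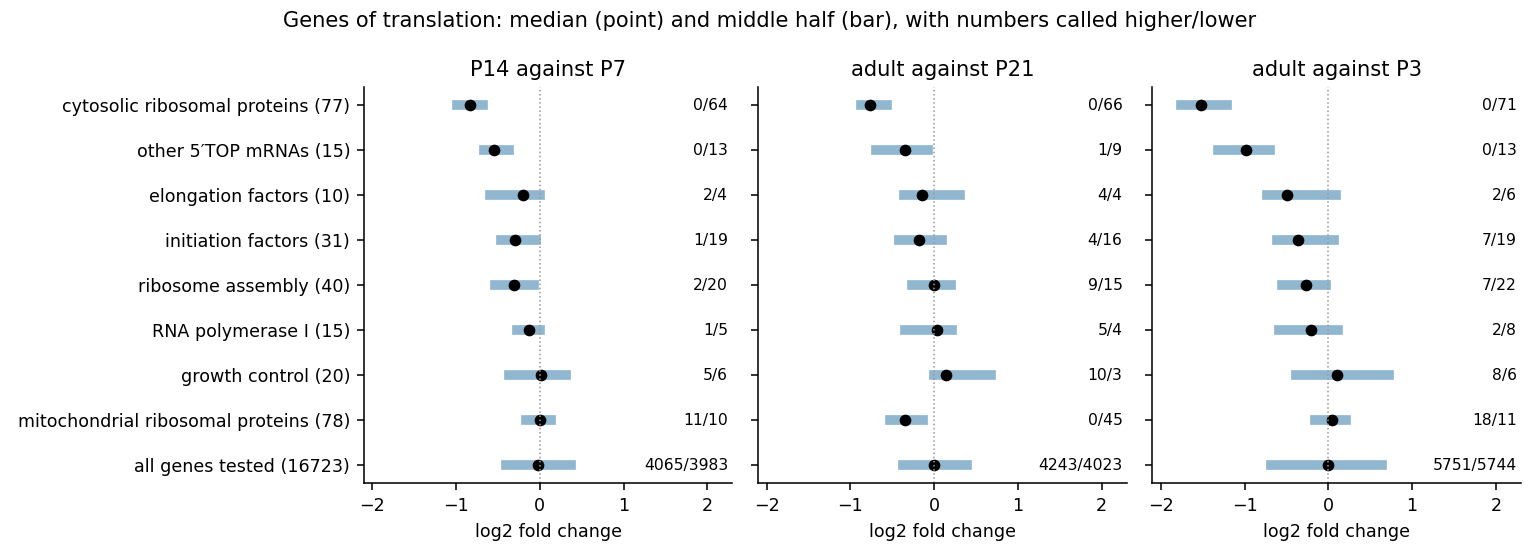
Log2 fold change (horizontal axis) of the cytosolic ribosomal protein genes, 7 other lists of translation and growth genes and all genes tested, with the number tested in brackets; points are medians, bars run from the lower to the upper quartile, and paired numbers count genes called higher and lower. The cytosolic ribosomal proteins have the lowest median in each panel (-0.83, -0.77 and -1.53).

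Transcript length bears on these values, since members are short (271 to 3706 bases, median 751) and other short genes also moved in some comparisons. In adults against P21, other genes under 1500 bases had a median of -0.40 and 47% of them were called lower, while genes of 5000 bases or more had a median of +0.45. Members under 1500 bases had a median of -0.79, with 60 of 71 called lower. At P14 against P7 other genes under 1500 bases had a median of -0.04, beside -0.81 in members of that length. In adults against P3 the medians were -0.15 for other genes and -1.52 for members. P21 replicate 2 carried the same kind of difference within its age: against the other 2 libraries its median log2 difference was +0.61 in members, +0.36 in other genes under 1500 bases and -0.41 in genes of 5000 bases or more. With a correction of each library for transcript length, chosen after seeing the data, 63 members were called lower at P14 against P7 (median -0.72) and 69 in adults against P3 (median -1.29), where 26.5% and 36.6% of all genes were called lower under the same correction. For adults against P21 the corrected counts were 38 lower and 4 higher (median -0.23), where 21.5% of all genes were lower and 20.6% higher. For P7 against P3 they were 36 lower (median -0.26), where 14.4% of all genes were lower. Without the correction, other genes under 1500 bases had a median of +0.15 at P7 against P3, beside -0.07 in members of that length. The correction thus moved the counts in adults against P21 and at P7 against P3 by more than 1.5 times. The source of the length difference was not tested.

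**Figure D5:**
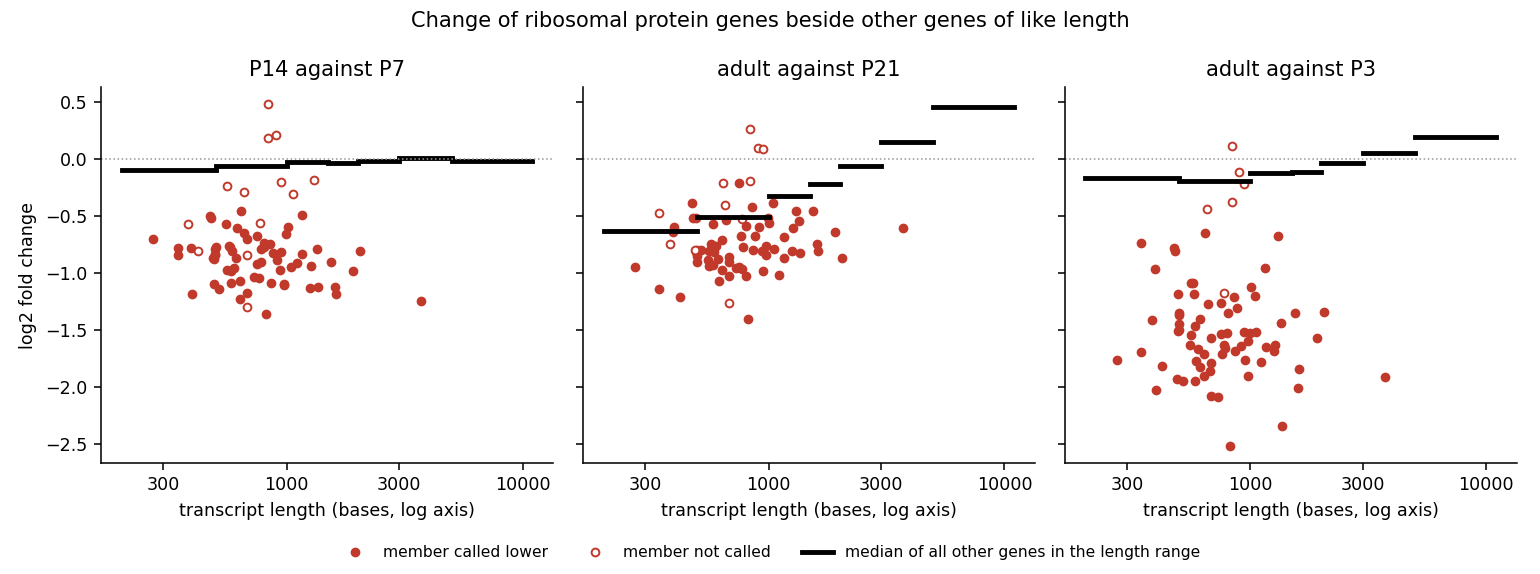
Log2 fold change (vertical axis) against transcript length in bases (horizontal log axis) for the 77 members (red points, filled where called lower), with black lines at the median of all other genes in each length range. Members lie well below the lines at P14 against P7 and in adults against P3, and nearer to them in adults against P21, where other genes under 1500 bases had a median of -0.40.

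Markers of the nerve's own cells and of other cells moved with age too. Of all genes tested, 12.8% were called lower and 15.4% higher at P7 against P3, and 23.8% and 24.3% at P14 against P7. The shares were 24.1% and 25.4% in adults against P21, and 34.3% and 34.4% in adults against P3. Of 12 Schwann cell markers, 9 rose and 1 fell at P7 against P3, 6 rose at P14 against P7, 1 rose and 4 fell in adults against P21, and 10 rose in adults against P3. Their sums were 822949 to 972470 at P7 against 226779 to 336758 at P3, and 520093 to 594063 in adults against 738604 to 931560 at P21. Of 10 oligodendrocyte markers, 7 rose at P7 against P3 and 6 in adults against P3. All 15 cell cycle markers fell at P14 against P7, and their summed counts ranged from 4669 to 8381 at P14 against 14270 to 14859 at P7. In adults against P21, 12 of 15 fell, with sums of 4007 to 4215 in adults against 5873 to 12200 at P21. All 8 osteoclast markers fell at P14 against P7, with sums of 4040 to 4396 at P14 against 34408 to 52999 at P7. Of 12 neuronal markers, 9 rose and 1 fell at P14 against P7, with sums of 331278 to 334035 at P14 against 85243 to 97082 at P7. In adults against P21, 7 of 7 erythroid, 6 of 8 B lymphoid, 6 of 7 neutrophil and 7 of 8 osteoblast markers fell. The B lymphoid sums nonetheless overlapped, at 4584 to 5263 in adults and 4690 to 5961 at P21. So did the neutrophil sums, at 310 to 2979 in adults and 2673 to 16733 at P21. Osteoblast sums were separate, at 5152 to 6605 in adults and 15696 to 42391 at P21. Fibroblast and macrophage markers fell as well, with 7 of 8 and 8 of 8 lower in adults against P3 and 1 fibroblast marker higher. The erythroid sums were 2641 to 4806 in adults against 19983 to 50609 at P21. No marker of these lists was at 0 in all libraries of an age. The part of cell composition in the ribosomal protein result was not tested.

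The genes outside the rule with the age profile most like the mean profile of the members were Hmgb2, U2af1, Il11ra1, Ppp4c and Hmgn1, by Pearson's r over the 5 age means among genes with a mean of at least 100. Their r was between 0.998 and 0.999, computed on 5 points and given as a description. Hmgb2 and Hmgn1 encode chromatin proteins, U2af1 a splicing factor, Il11ra1 a cytokine receptor chain and Ppp4c a phosphatase subunit.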

How the data were processed

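Total RNA from auditory nerve was made into TruSeq libraries, per the labels' protocols, and samples of low RNA quality were excluded. Partek, TopHat2 and DESeq2 and the build mm10 are named in the submitters' processing notes, and the read counter, annotation and strand setting are not given in the sources used here. The deposited values are normalized counts, a signal made by the authors by dividing read counts by a factor per library. Dividing them by the smallest step of each library gave whole reads, within 0.1, for 99.94% of positive values. The 16723 genes that reached 10 in 3 or more libraries were tested with limma 3.58.1 (R 4.3.3) on log2(value + 1), trend and robust, all 15 libraries in 1 fit, 2-sided. A fold change on this scale understates the change of low genes. edgeR 4.0.16 and DESeq2 1.42.0 were run on the recovered reads, and edgeR called 11445 genes in adults against P3. The scripts were checked on simulated data. Full values were printed for genes fixed by a rule (6 members chosen by name, the 3 largest called changes with a mean of at least 100 at P14 against P7 and in adults against P3, both genes of each tested paralog pair, and in other lists up to 4 genes with the smallest adjusted p plus 10 chosen by name), and some of these genes are not reported here. The members and lists were chosen with earlier results of these data known. Transcript lengths and shared 75-base windows came from GENCODE and start sequences from RefSeq. Each library is a different mouse.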

Additional observations from a re-analysis of the deposited data

How the results depend on the processing

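Under the alternatives (other scalings, filters, pseudocounts, tests and samples), the direction of the member counts held at P14 against P7, with 59 to 68 lower, and in adults against P3, with 67 to 73 lower. Of all genes, 19.4% to 31.1% and 31.7% to 45.9% were called lower in these comparisons under the same alternatives. No member was called higher in these comparisons under any of them. In adults against P21 the count was 54 to 69 lower in all alternatives but the length correction, which gave 38 lower and 4 higher. Of all genes, 11.4% to 31.4% were lower in the former, and the length correction gave 21.5% lower and 20.6% higher. That correction also gave 36 lower at P7 against P3 and 3 lower at P21 against P14, where 14.4% and 7.16% of all genes were lower. Among members named in the text, it turned the sign of Rpl22 (0.26), Rps15a (0.35), Rps9 (0.29), Rpl32l (0.10), Rpl34 (0.12), Rpl41 (0.013), Rpl8 (0.036), and Rps21 (0.059) in adults against P21, of which Rpl22, Rps15a and Rps9 passed the threshold as higher. At P7 against P3 it turned Rpl15 to -0.15, Rps21 to -0.22 and Rps25 to -0.22. Summing with pseudogene copies turned Rpl37 to -0.88 at P14 against P7 and to -1.26 in adults against P3. At P7 against P3, TMM scaling gave 1 lower, fitting only the 2 ages gave 1 higher, and leaving out the 4 libraries with little Eif2s3y, a Y-linked transcript, gave 5 lower and 1 higher. Of all genes, TMM scaling called 11.7% lower there, and fitting only the 2 ages called 19.6% higher. Leaving out the 4 libraries called 18.5% of all genes lower and 19.6% higher. That last setting gave 1 lower at P21 against P14, where 3.28% of all genes were lower. Leaving out each library in turn gave 1 to 5 lower and 0 to 1 higher at P7 against P3, 59 to 68 lower at P14 against P7, 0 to 2 lower at P21 against P14, 61 to 66 lower in adults against P21, 70 to 73 lower in adults against P3 and 68 to 71 differing over the 5 ages. Of all genes, these fits called 7.56% to 18% lower and 10.8% to 20% higher at P7 against P3. The lower shares were 19.4% to 27.6% at P14 against P7 and 2.86% to 7.19% at P21 against P14. They were 19.7% to 25% in adults against P21 and 31.7% to 36.3% in adults against P3. Over the 5 ages, 81.5% to 86.5% of all genes differed. The 2 members lower at P21 against P14 arose without P21 replicate 2, where 7.19% of all genes were lower. With the 100 most abundant other genes left out of the denominator, the members' share was 1.13% at P3, 1.03% at P7, 0.539% at P14, 0.604% at P21 and 0.350% in adults, and with all genes in the denominator, leaving out each library in turn gave 0.937% to 1.04%, 0.864% to 0.891%, 0.416% to 0.461%, 0.441% to 0.530% and 0.289% to 0.303% at these ages. Scaling to the total of other genes shifted the median of all genes by -0.27 in adults against P3, where it called 4123 genes higher and 7670 lower, against 5751 and 5744. edgeR gave 62, 67 and 71 lower and DESeq2 65, 67 and 71 at P14 against P7, adults against P21 and adults against P3. In the same order, edgeR called 22.8%, 24.5% and 33.8% of all genes lower, and DESeq2 25%, 26% and 34.8%. The replicate numbers do not pair the libraries: deviations of same-numbered libraries correlated at -0.23 to 0.32, and P7 has other numbers. With a replicate block over the other 4 ages, 0, 64 and 71 members were lower at P21 against P14, in adults against P21 and in adults against P3. Of all genes, 2.88%, 20.5% and 32.5% were lower in that fit. Every paralog ratio kept its direction and its side of the threshold with pseudocounts of 0.1 and 10, and its direction with each library left out. The length correction, the summed copies and the fit without P7 were chosen after seeing the data.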
